A study of Saccharomyces cerevisiae with 2 samples.

Results

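The 8 glutaredoxin genes of the budding yeast Saccharomyces cerevisiae, GRX1 to GRX8, were taken by gene symbol from a deposited table of 5734 coding sequences, and all 8 were found. The table sets messenger RNA of the mutant strain Y518, which by the title of the series produces much glutathione, beside that of the strain 2-10515, labelled wild type. Both strains were grown the same way, in a seed culture of 18 h at 30 °C and 180 rpm that was inoculated at 10% by volume into fresh medium and fermented for 24 h. Each strain gave 1 library, so no test between strains was possible. Every value is that of a single library. The genetic changes of Y518, and how closely the strains are related, are not stated in the labels. Uniquely mapped reads numbered 4.32 M for Y518 and 4.71 M for the wild type.

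Glutaredoxins are small oxidoreductases that use glutathione to reduce disulfides and to remove glutathione from proteins. Dithiol members carry a pair of cysteines in the active site, whereas monothiol members have serine in place of the second cysteine. Monothiol members of the cytosol, nucleus and mitochondria are best known for handling iron-sulfur clusters rather than for reducing disulfides.

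The active sites are shown because they set the dithiol and monothiol classes compared below. Each line gives 36 bases of the coding strand, 5′ to 3′, from the R64 RefSeq reference, with the 4 active-site codons in capitals. Transcript records of the same version stand in the deposited table and in the reference for 7 of the 8 genes, GRX3 being the exception. The first 3 sequences end their site on a cysteine codon.
GRX1: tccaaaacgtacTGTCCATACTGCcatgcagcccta
GRX2: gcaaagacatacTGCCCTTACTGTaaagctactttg
GRX8: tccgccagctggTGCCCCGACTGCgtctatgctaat
In the other 5 the last codon of the site encodes serine.
GRX3: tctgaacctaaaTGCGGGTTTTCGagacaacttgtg
GRX4: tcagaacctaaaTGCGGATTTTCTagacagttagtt
GRX5: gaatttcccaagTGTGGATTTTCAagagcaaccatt
GRX6: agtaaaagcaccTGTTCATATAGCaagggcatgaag
GRX7: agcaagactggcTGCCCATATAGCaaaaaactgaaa
GRX3, GRX4 and GRX5 share a site of cysteine, glycine, phenylalanine and serine codons, while GRX6 and GRX7 have tyrosine as the third residue, as GRX1 and GRX2 do. All 31 genes with a single read in Y518, and all 38 such genes in the wild type, had 49 bases covered, so the read length was taken as 49 bases. At exact match 0 of the 49-base stretches of any member occurred a second time in the reference genome. The longest run shared by any of the 28 pairs of members was 21 bases, between GRX3 and GRX4.

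Levels are given as deposited, in RPKM, a unit that divides reads by the length of the coding sequence and by the total of the library. Intervals beside them are 95% intervals that cover counting error only, not the spread between cultures. A ratio is that of reads per library total, Y518 over the wild type. RNA of a whole culture does not tell a lower level in every cell from fewer cells with the transcript.

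Over the family as a whole the libraries were close, but single members differed in both directions. The 8 genes held 4667 reads in Y518 and 5414 reads in the wild type, which is 0.108% and 0.115% of the library. Their summed level was 2403 RPKM in Y518 and 2522 RPKM in the wild type, a ratio of 0.953 (0.915 to 0.992), or -0.34 on the log2 scale after subtraction of the median of all genes. All 8 passed the minimum of 5 RPKM on average over both libraries. A gene was called at a change of at least 2-fold in RPKM + 1. GRX1 and GRX3 were higher in Y518, 0 were lower, and 6 lay within 2-fold. Of 5415 genes past the same minimum, 19.9% were called higher and 8.88% lower, so 2 of 8 is near the background. The median log2 ratio of the members was 0.19, beside 0.27 for all genes.

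That offset of all genes matters for the calls. When that median was subtracted from each log2 ratio (centring), GRX3 was the 1 member past 2-fold upwards, and GRX2 and GRX4 were the 2 past it downwards. Of all tested genes 13.2% were then called higher and 13.6% lower. TMM scaling (13.5% and 13.2% of all genes) and median-of-ratios scaling (13.2% and 13.5%) called the same 3 members. At 1.5-fold, which 35.3% and 16.4% of genes passed, GRX1 and GRX3 were higher and GRX2 and GRX4 lower. At 3-fold, which 8.33% and 3.86% passed, GRX3 was the 1 member called. Pseudocounts of 0.1 (20.9% and 9.29%) and 5 (16.2% and 7.76%), and no minimum level (20.1% and 9.23%), called GRX1 and GRX3 as before.

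**Figure D1:**
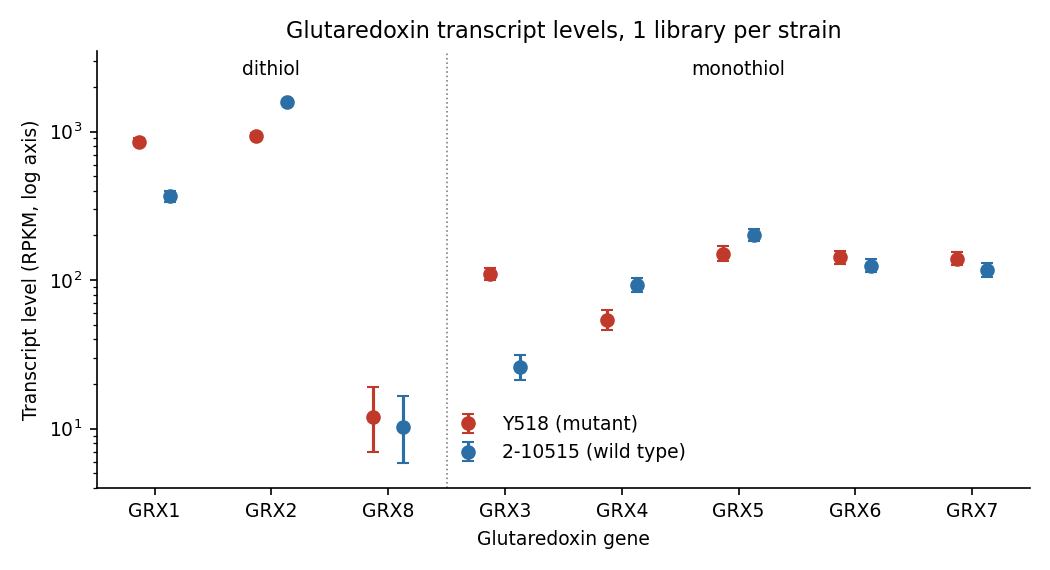
Transcript level in RPKM on a log axis for the 3 dithiol and 5 monothiol glutaredoxin genes, with Y518 in red and the wild type in blue; bars are 95% counting intervals from 1 library per strain. GRX1 and GRX3 are higher in Y518, GRX2, GRX4 and GRX5 have more in the wild type, and the intervals of GRX6, GRX7 and GRX8 overlap between the libraries.

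GRX1 and GRX2 encode the classical dithiol glutaredoxins, which serve in protection against oxidative damage. GRX1 (YCL035C) had 1231 reads, 856 RPKM (809 to 905), in Y518, against 575 reads, 367 RPKM (337 to 398), in the wild type. It was 2.33-fold higher in Y518, with an interval of 2.11 to 2.58, and its ratio was 1.93 after centring. GRX1 was covered over 99.1% of its length in Y518 and 98.2% in the wild type, so the reads came from nearly the whole coding sequence.

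GRX2 (YDR513W), whose product is found in the cytosol and in mitochondria, was the most abundant member in both libraries. It had 1750 reads, 938 RPKM (895 to 983), in Y518, against 3220 reads, 1583 RPKM (1529 to 1639), in the wild type. The ratio was 0.593 (0.559 to 0.628), within 2-fold, or 0.491 after centring. The long and short forms of the protein start at different in-frame start codons, the second of which is codon 35 in the reference. Reads per gene do not tell these forms apart. The GRX2 coding sequence overlaps EMI1 on the opposite strand by 47 bases, and the labels do not say whether counting used the strand.

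GRX8 (YLR364W), a little-studied member with a dithiol site, was the least abundant. It had 17 reads, 11.9 RPKM (6.95 to 19.1), in Y518 and 16 reads, 10.3 RPKM (5.89 to 16.7), in the wild type. The ratio of 1.16 had an interval of 0.551 to 2.45, so a 2-fold higher level and an equal level both lie inside it. After centring its log2 ratio was -0.08.

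GRX3 and GRX4 encode monothiol glutaredoxins of the cytosol and nucleus that bind iron-sulfur clusters and restrain the iron-regulon activator Aft1 when iron is sufficient. GRX3 (YDR098C) had 407 reads, 110 RPKM (99.5 to 121), in Y518, against 105 reads, 26.0 RPKM (21.3 to 31.5), in the wild type. It was the member that differed most, 4.23-fold higher in Y518 (3.40 to 5.29), and 4.28% of the tested genes had a higher log2 ratio. Its log2 ratio of RPKM + 1 was 2.04, and 1.77 after centring. GRX3 stood above 73.2% of all listed genes in Y518 and above 38.1% in the wild type.

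GRX4 (YER174C) stood the other way round. It had 172 reads, 54.2 RPKM (46.4 to 62.9), in Y518, against 321 reads, 92.8 RPKM (82.9 to 103), in the wild type. The ratio was 0.584 (0.483 to 0.705), within 2-fold before centring. GRX4 stood above 55.0% of all listed genes in Y518 and above 72.7% in the wild type.

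The listed length of GRX3 bears on its level. The deposited table gives 858 bases, while the later reference record gives 753. The records differ by 105 bases, and the 105 bases directly upstream of the reference start open with ATG and hold 0 in-frame stop codons. Reads covered 818 bases of the deposited length in Y518 and 769 in the wild type, so at least 65 and 16 covered bases lay outside the 753 of the later record. With the reference length the same reads would give GRX3 125 RPKM in Y518 and 29.6 RPKM in the wild type. Both values still divide all counted reads, including any outside the 753 bases, by 753. The ratio of all counted reads between the libraries uses no length. Reads outside the 753 bases could not be set apart, so the ratio over the later record alone is not known.

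**Figure D2:**
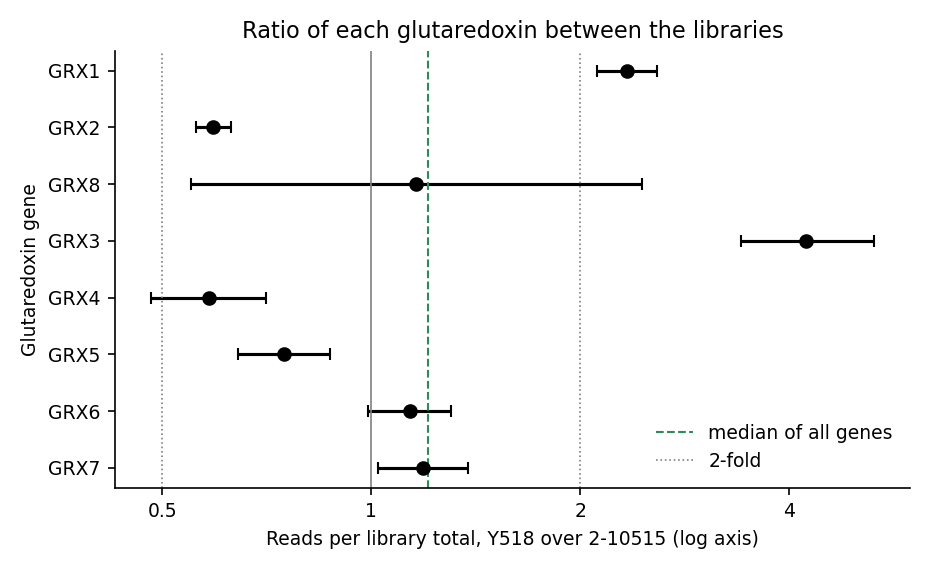
Ratio of reads per library total, Y518 over the wild type, for each glutaredoxin gene on a log axis, with 95% counting intervals; dotted lines mark 2-fold and the dashed line the median of all genes. GRX1 at 2.33 and GRX3 at 4.23 lie beyond 2-fold, and GRX2, GRX4 and GRX5 lie below 1 with intervals that exclude 1.

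GRX5 (YPL059W) encodes the monothiol glutaredoxin of the mitochondrial matrix, which passes newly made iron-sulfur clusters on to acceptor proteins. It had 294 reads, 150 RPKM (134 to 169), in Y518, against 428 reads, 201 RPKM (182 to 221), in the wild type. The ratio was 0.749 (0.644 to 0.871), or 0.620 after centring, within 2-fold either way.

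GRX6 and GRX7 encode membrane-bound monothiol glutaredoxins of the endoplasmic reticulum and Golgi. GRX6 (YDL010W) had 427 reads, 142 RPKM (129 to 156), in Y518 and 410 reads, 125 RPKM (113 to 138), in the wild type, with a ratio of 1.14 (0.990 to 1.30). GRX7 (YBR014C) had 369 reads, 140 RPKM (126 to 155), in Y518 and 339 reads, 118 RPKM (105 to 131), in the wild type, with a ratio of 1.19 (1.02 to 1.38). Both ratios were close to the median of all genes, and after centring they were 0.940 and 0.983, on the other side of 1.

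Coverage was less complete for GRX6, GRX3 and GRX8 than for the other members. For GRX6, reads covered 87.6% of its length in Y518 and 91.2% in the wild type, which left 86 and 61 bases without a read. Among 3974 genes with at least 100 reads in both libraries the median coverage was 98.8% in Y518 and 98.5% in the wild type, and 5.91% and 11.9% of them were covered no more fully than GRX6. GRX3 was covered over 95.3% of its deposited length in Y518 and 89.6% in the wild type, which 18.3% and 9.94% of those genes did not exceed. GRX8, on its few reads, was covered over 86.1% in Y518 and 91.2% in the wild type. The GRX6 coding sequence overlaps the opposite-strand gene YDL009C by 101 bases.

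The order of levels within the family was nearly the same in both libraries. In Y518 it ran GRX2, GRX1, GRX5, GRX6, GRX7, GRX3, GRX4 and GRX8. There GRX5 and GRX6 did not differ beyond counting error (1.06-fold, 0.909 to 1.23), nor did GRX6 and GRX7 (1.02-fold, 0.883 to 1.17). In the wild type it ran GRX2, GRX1, GRX5, GRX6, GRX7, GRX4, GRX3 and GRX8, and GRX6 and GRX7 again did not differ beyond counting error (1.06-fold, 0.919 to 1.23). The change of order was the exchange of places between GRX3 and GRX4.

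**Figure D3:**
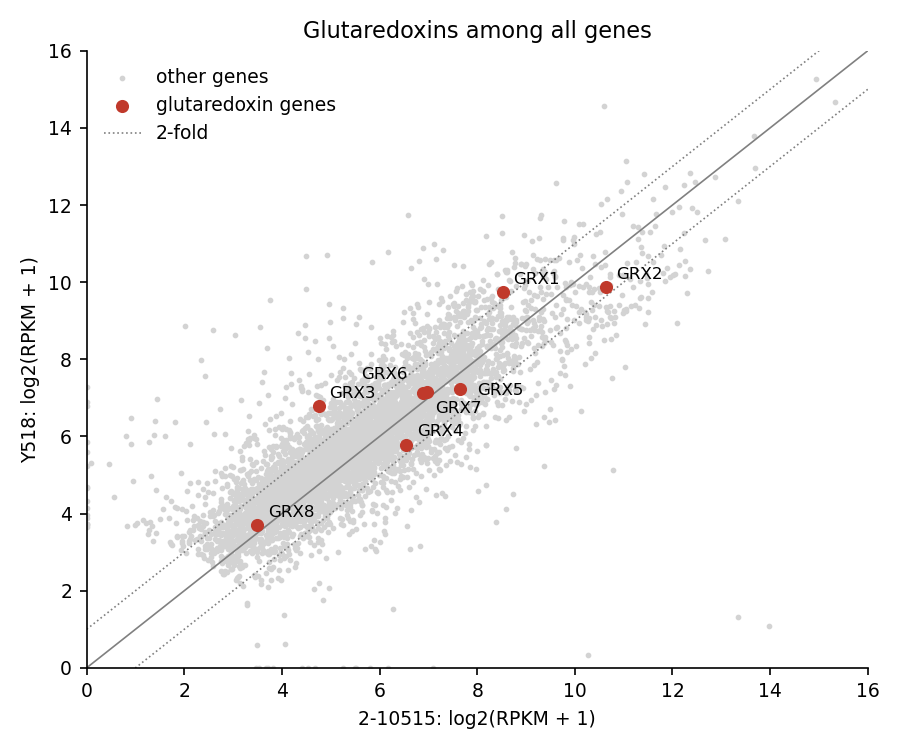
Level of each gene with a mean of at least 5 RPKM in log2(RPKM + 1), Y518 upwards and the wild type across; dotted lines mark 2-fold. The glutaredoxin genes (red) lie among all other genes (grey), with GRX3 and GRX1 above the upper line and the other 6 between the lines.

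Within pairs of like members the split of transcripts shifted for both cytosolic pairs, and this comparison does not depend on the scaling between libraries. GRX1 and GRX2 were 64.5% identical over 330 aligned bases. GRX1 made up 47.7% of their summed RPKM in Y518 and 18.8% in the wild type, and the ratio of GRX1 to GRX2 reads was 3.94-fold higher in Y518 (3.51 to 4.43). GRX2 stood 1.10-fold above GRX1 in Y518 (1.02 to 1.18) and 4.32-fold above it in the wild type (3.95 to 4.73). The pair as a whole came to 1795 RPKM in Y518 and 1950 RPKM in the wild type, a ratio of 0.920 (0.877 to 0.966).

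GRX3 and GRX4 were 67.8% identical over 735 aligned bases. GRX3 made up 67.0% of their summed RPKM in Y518 and 21.9% in the wild type, and the ratio of GRX3 to GRX4 reads was 7.23-fold higher in Y518 (5.40 to 9.71). GRX3 stood 2.03-fold above GRX4 in Y518 (1.69 to 2.44), whereas GRX4 stood 3.57-fold above GRX3 in the wild type (2.85 to 4.49). With the same reads over the reference length of GRX3 these values were 2.31 in Y518 and 3.13 in the wild type. The pair came to 164 RPKM in Y518 and 119 RPKM in the wild type, a ratio of 1.38 (1.22 to 1.57).

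GRX6 and GRX7 kept their split within counting error. Only 29 of their bases were aligned, at 58.6% identity, too few to measure the likeness of this pair. GRX6 made up 50.4% of their summed RPKM in Y518 and 51.5% in the wild type, and the ratio of GRX6 to GRX7 reads in Y518 was 0.957 times that in the wild type (0.779 to 1.17).

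**Figure D4:**
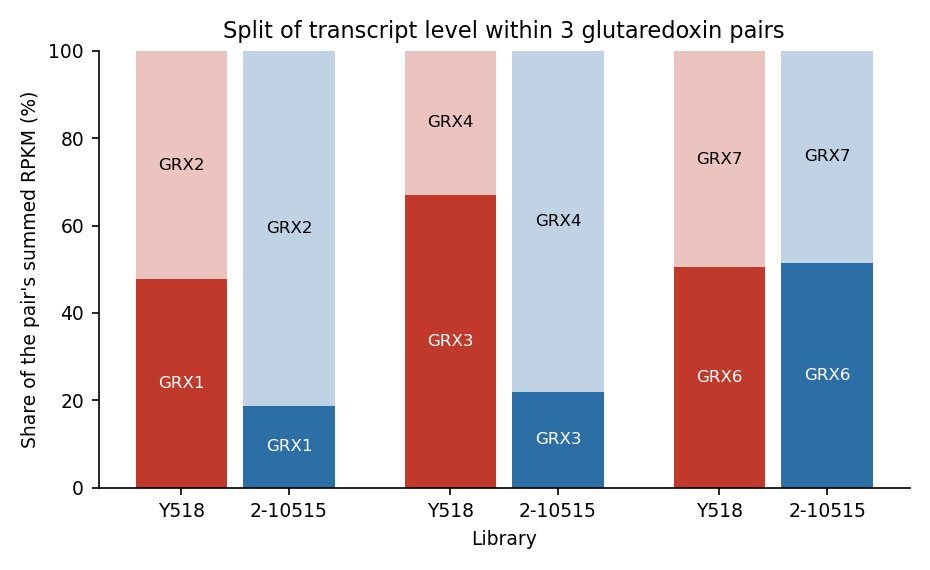
Share of each pair's summed RPKM that falls to each member, in percent, with Y518 left (red) and the wild type right (blue) for each of 3 pairs. GRX1 takes 47.7% of its pair in Y518 and 18.8% in the wild type, GRX3 takes 67.0% and 21.9%, and GRX6 takes 50.4% and 51.5%.

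The summed level of each class differed little between the libraries before centring. The 3 dithiol genes came to 1807 RPKM in Y518 and 1960 RPKM in the wild type, a ratio of 0.922 (0.878 to 0.967) that became 0.763 after centring. The 5 monothiol genes came to 596 RPKM in Y518 and 562 RPKM in the wild type, a ratio of 1.06 (0.989 to 1.14) that became 0.878 after centring. The monothiol ratio over the dithiol ratio was 1.15 (1.06 to 1.25), and it rested on single members: it was 1.78 without GRX1 and 0.461 without GRX2. The 3 genes with the cysteine, glycine, phenylalanine and serine site summed to 314 RPKM in Y518 and 319 RPKM in the wild type, although GRX3 differed 4.23-fold.

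By compartment, the genes whose products stay in the cytosol, GRX1 and GRX8, came to 868 RPKM in Y518 and 377 RPKM in the wild type. This sum is almost all GRX1. GRX3 and GRX4, of cytosol and nucleus, had the ratio of 1.38 given above, and GRX6 and GRX7, of the endoplasmic reticulum and Golgi, had 282 RPKM in Y518 and 243 RPKM in the wild type, a ratio of 1.16 (1.05 to 1.28), or -0.06 on the log2 scale after centring. The 2 genes with a mitochondrial product, GRX2 and GRX5, had ratios of 0.593 and 0.749, and GRX4, of cytosol and nucleus, had 0.584.

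Genes related to glutaredoxins by role or compartment were read from 5 lists with 64 members, all measured and all past the minimum. Over the lists together 13 of the 64 genes passed 2-fold upwards in Y518 and 7 downwards. Of all tested genes 19.9% and 8.88% did, so the lists together are near the background. After centring 8 were higher and 11 lower, beside 13.2% and 13.6% of all tested genes. The lists were chosen with earlier results of these data known.

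Thiol reduction held 19 genes. In Y518 7 of them were called higher and 2 lower, beside 19.9% and 8.88% of all tested genes. After centring 5 and 3 were called, beside 13.2% and 13.6%. Their median log2 ratio was 0.53, beside 0.27 for all genes. GLR1, the reductase that returns oxidised glutathione to the form glutaredoxins use, had 91.7 RPKM in Y518 and 101 RPKM in the wild type, a ratio of 0.910 (0.813 to 1.02). AHP1, a thiol peroxiredoxin, had 996 RPKM in Y518 and 126 RPKM in the wild type, 7.90-fold higher (7.02 to 8.92). GTO1 and GTO2, omega-class glutathione transferases with glutaredoxin-like activity, were 5.17-fold (3.57 to 7.68) and 3.60-fold higher (3.13 to 4.16). GTO3, the other omega-class gene, named after its values were seen, had 43.3 RPKM in Y518 and 63.5 RPKM in the wild type, a ratio of 0.683 (0.571 to 0.815). TRR1, the cytosolic thioredoxin reductase of the parallel disulfide-reducing system, had 90.5 RPKM in Y518 and 258 RPKM in the wild type, 2.85-fold lower (2.53 to 3.21). The other reductase gene and the thioredoxin genes of that system, named after their values were seen, were not lower before centring. TRR2, the other thioredoxin reductase gene, was 2.67-fold higher (2.26 to 3.16). The thioredoxin genes TRX1, TRX2 and TRX3 had ratios of 1.44 (1.25 to 1.67), 1.94 (1.74 to 2.17) and 1.02 (0.914 to 1.14). Peroxiredoxin genes besides AHP1, also named after their values were seen, went both ways. TSA2 was 2.38-fold lower (1.85 to 3.09), and PRX1 had a ratio of 0.561 (0.540 to 0.583). TSA1 had a ratio of 1.13 (1.08 to 1.18), and DOT5 was 2.32-fold higher (1.92 to 2.81).

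Around GRX3 and GRX4, the list of iron sensing and cytosolic iron-sulfur assembly held 14 genes. In Y518 2 of them were called higher and 0 lower, beside 19.9% and 8.88% of all tested genes. After centring 1 and 1 were called, beside 13.2% and 13.6%. Their median log2 ratio was 0.69, beside 0.27 for all genes. MET18, which targets clusters to nuclear and cytosolic proteins, was 3.94-fold higher (3.18 to 4.92). FRA2, the BolA-type partner of both glutaredoxins in iron sensing, was 2.47-fold higher (1.70 to 3.64) on 95 reads in Y518 and 42 reads in the wild type. AFT1, named after its values were seen because it is the activator these proteins restrain, had 87.5 RPKM in Y518 and 173 RPKM in the wild type. Its ratio of 0.507 (0.465 to 0.552) was within 2-fold, and it was the gene past 2-fold lower after centring. AFT2 and FRA1 of the same list, also named after their values were seen, did not share the directions of AFT1 and FRA2. Their ratios were 1.30 (1.11 to 1.53) and 0.994 (0.942 to 1.05).

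Around GRX5, mitochondrial iron-sulfur assembly held 18 genes. Of these 0 were called higher in Y518 and 3 lower, beside 19.9% and 8.88% of all tested genes. After centring 0 and 5 were called, beside 13.2% and 13.6%. Their median log2 ratio was -0.15, beside 0.27 for all genes. YAH1, the mitochondrial ferredoxin, had 34.8 RPKM in Y518 and 147 RPKM in the wild type, 4.22-fold lower (3.30 to 5.46). BOL3, a BolA-type protein of the late steps, was 2.36-fold lower (1.73 to 3.25), and YFH1, yeast frataxin, 2.25-fold lower (1.94 to 2.62). GRX5, at a ratio of 0.749, lay within the range of this list, which ran from -2.05 to 0.75 in log2 ratio. That range is wide, and GRX2, GRX4, GRX6, GRX7 and GRX8 lay in it too.

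In the compartment of GRX6 and GRX7, oxidative folding in the endoplasmic reticulum held 7 genes. Of these 3 were called higher in Y518 and 1 lower, beside 19.9% and 8.88% of all tested genes. After centring 2 and 1 were called, beside 13.2% and 13.6%. Their median log2 ratio was 0.59, beside 0.27 for all genes. MPD1 and EUG1, of the protein disulfide isomerase family, were 5.15-fold (3.93 to 6.84) and 2.90-fold higher (2.22 to 3.83). ERO1, the oxidase that drives disulfide formation, was 2.24-fold higher (1.98 to 2.55), and ERV2, another thiol oxidase, 2.19-fold lower (1.75 to 2.76).

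Among 6 regulators of stress genes 1 was called higher in Y518 and 1 lower, beside 19.9% and 8.88% of all tested genes. After centring 0 and 1 were called, beside 13.2% and 13.6%. Their median log2 ratio was -0.13, beside 0.27 for all genes. MSN4, a general stress activator, had 81.2 RPKM in Y518 and 713 RPKM in the wild type, 8.77-fold lower (8.10 to 9.52). SKN7, which acts with Yap1 in the response to oxidants, was 2.18-fold higher (1.90 to 2.50). The other 4 lay within 2-fold, among them MSN2 at a ratio of 0.914 (0.795 to 1.05) and YAP1 at 0.917 (0.856 to 0.981).

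**Figure D5:**
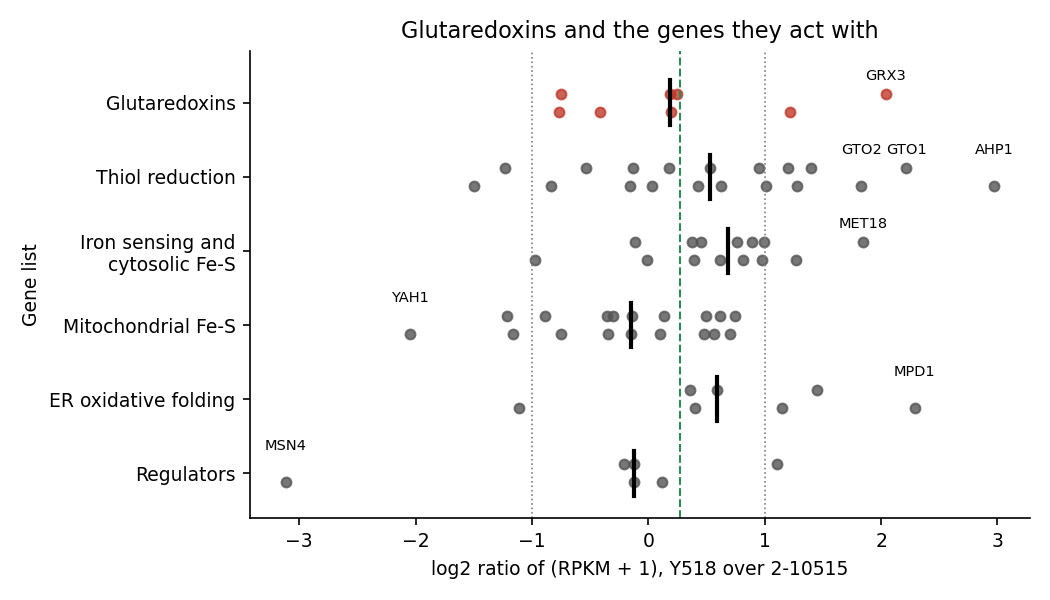
The log2 ratio of RPKM + 1, Y518 over the wild type, for the 8 glutaredoxin genes (red) and 5 lists of genes related by role or compartment (grey). Black bars are list medians, dotted lines 2-fold and the dashed line the median of all genes, 0.27. Mitochondrial iron-sulfur genes have a median of -0.15 with YAH1 lowest, and thiol reduction genes spread from TRR1 at -1.50 to AHP1 at 2.97.

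Genes with a standard name were ranked by Euclidean distance from GRX3 over log2(RPKM + 1) in the 2 libraries. Among them the nearest were UGA2, GSH1 and RRT14, at distances of 0.066, 0.092 and 0.17. GSH1, the first enzyme of glutathione synthesis, had 117 RPKM in Y518 and 26.5 RPKM in the wild type, beside 110 and 26.0 RPKM for GRX3. UGA2, a succinate semialdehyde dehydrogenase, had 115 RPKM in Y518 and 26.3 RPKM in the wild type. With 2 libraries this likeness says only that level and ratio were close. The distances use GRX3 over its deposited length. Over the reference length its level would be 125 RPKM in Y518 and 29.6 RPKM in the wild type, and the ranking was not repeated with these values.

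Among genes with a standard name, most like GRX2, the member of highest mean level, were QCR8, GDH3 and PET9. Their distances were 0.11, 0.14 and 0.19. QCR8, a subunit of respiratory complex III, had 978 RPKM in Y518 and 1689 RPKM in the wild type.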

How the data were processed

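Per the file headers, the authors deposited, per library and coding sequence, a count of uniquely mapped reads, RPKM, and coverage as percent of the length. RPKM equalled count over length and library total for every gene (0 mismatches at a relative tolerance of 1e-06). The aligner, the genome build and the strand setting are not stated in the labels or headers, so no coordinates are printed. Members were read from the longer table of 5734 genes. The shorter table listed 7 of them, without GRX8. Deposited columns of other samples numbered 0.

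The ratio of reads per library total has an exact conditional binomial (Clopper-Pearson) 95% interval, RPKM an exact Poisson interval, a sum of RPKM a Poisson interval on the log scale, and a ratio within a pair a conditional odds-ratio interval. PCR duplicates are not independent molecules. Calls use a pseudocount of 1 RPKM, which understates changes of low genes, and a minimum mean of 5 RPKM. The ratio interval, the sum interval for the monothiol genes and the 2-fold call were checked on simulated Poisson counts. That is the model the intervals assume, so the check does not cover duplicates or the spread between cultures. The RPKM and pair intervals were not simulated. Python 3.11.15, scipy 1.17.1, R 4.3.3 and edgeR 4.0.16 (TMM factors only) were used. The library totals are 4.32 M reads for Y518 and 4.71 M for the wild type. Of the listed accessions 5685 matched the R64 RefSeq annotation with their version and 5713 without it.

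Members and gene lists were chosen with earlier results of these data known. Named are all members, and of each list up to 4 genes past 2-fold with the largest change plus GLR1. Also named are the 3 genes with a standard name nearest in level to the most changed and to the most abundant member. AFT1, AFT2, FRA1, GTO3, TRR2, TRX1, TRX2, TRX3, TSA1, TSA2, PRX1, DOT5, MSN2, YAP1 and the neighbouring genes were added after their values were seen. Alternatives were other pseudocounts, scalings, sizes of change, no minimum, members left out, summed reads and, added after the data were seen, the reference length of GRX3.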

Additional observations from a re-analysis of the deposited data

How the results depend on the processing

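No paired analysis was possible because each strain has 1 library. The scaling moved the members' calls. With centring, TMM or median-of-ratios scaling 1 member was called higher in Y518 and 2 lower, instead of 2 and 0. At 1.5-fold 2 were higher and 2 lower, and at 3-fold 1 was higher. GRX3 was called at every setting tried. Pseudocounts of 0.1 and 5 and no minimum left the members' calls as they were. In the 5 lists 13 were higher and 7 lower at the main setting. Instead, 8 were higher and 11 lower after centring (13.2% and 13.6% of all tested genes) and with median-of-ratios scaling (13.2% and 13.5%). With TMM 9 were higher and 11 lower (13.5% and 13.2%). At 1.5-fold 25 were higher and 11 lower (35.3% and 16.4%), and at 3-fold 5 were higher and 2 lower (8.33% and 3.86%). The dithiol ratio of 0.922 became 0.763 after centring, 0.767 with TMM, 0.760 with median-of-ratios scaling, 0.858 from summed reads, 0.596 without GRX1 and 2.30 without GRX2. The monothiol ratio of 1.06 became 0.878, 0.883 and 0.874 under the same 3 scalings, 0.907 without GRX3, 1.15 without GRX4 and 1.23 without GRX5. The monothiol over dithiol ratio of 1.15 became 1.32 from summed reads, 1.78 without GRX1, 0.461 without GRX2, 0.984 without GRX3 and 1.34 without GRX5. For ratios and sums the shifts under scaling follow from the change of factor and those without a member from its removal. With the same reads over the reference length of GRX3 the monothiol ratio and the monothiol over dithiol ratio stayed within their counting intervals. The level of GRX3 in Y518 became 125 RPKM, above its interval of 99.5 to 121. Ratios within pairs are the same from reads and from RPKM by construction, since length and library total cancel. Depth limits GRX8, on 17 reads in Y518 and 16 reads in the wild type.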

Other observations

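The genes next to each glutaredoxin gene in the reference order were read as well. Of 16 such neighbours 4 passed 2-fold upwards in Y518 and 0 downwards, beside 19.9% and 8.88% of all tested genes. After centring 2 were higher, MNN2 and RPS22B, and 0 lower, beside 13.2% and 13.6%. The look at neighbours was added after the values were seen. MNN2, a Golgi mannosyltransferase gene beside GRX7, was 4.56-fold higher (4.08 to 5.10), with 215 RPKM in Y518 and 47.2 RPKM in the wild type, while GRX7 had a ratio of 1.19. RPS22B, a ribosomal protein gene beside GRX8, was 3.51-fold higher (3.03 to 4.07), and YLR363W-A on its other side 2.34-fold higher (1.20 to 4.77), within 2-fold after centring, where GRX8 had a ratio of 1.16. YDR514C beside GRX2 was 2.53-fold higher (1.85 to 3.48), and also within 2-fold after centring, where GRX2 had a ratio of 0.593.

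The neighbours of the 2 called members lay within 2-fold. MSH6, a mismatch repair gene, and BMH2, a 14-3-3 protein gene, flank GRX3 and had ratios of 1.43 (1.20 to 1.72) and 1.16 (1.11 to 1.22), beside 4.23 for GRX3. GFD2 and LSB5 flank GRX1 and had ratios of 1.29 (0.886 to 1.89) and 1.42 (1.26 to 1.60), beside 2.33 for GRX1.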
